A study of Mus musculus with 99 samples.

Results

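The 6 GATA transcription factors, Gata1 to Gata6, were followed in mouse embryonic stem cells (ESCs) that lost the activity of Polycomb repressive complex 1 (PRC1). They were chosen by name, as 6 of the 55341 gene names in the count table, over all 16 RNA-seq libraries, together with every chromatin immunoprecipitation (ChIP-seq) peak of 70 deposited peak lists that overlapped the gene or lay within 2.5 kb of it. The family was picked with its response to OHT already known, so every comparison among Parental, RING1B WT and RING1B I53S cells is given for these genes as a description, with fold changes, errors and whether thresholds were passed, but with no p-value of its own. P-values are given for Eed fl/fl cells. The RING1B-deficient line (Parental) was an ESC line carrying ROSA26::creERT2, RING1A-/- and RING1B fl/fl, in which OHT (4-hydroxytamoxifen, 0.5 µM) deletes RING1B. RING1B WT and RING1B I53S ESCs were stable clones of that line expressing Flag-HA-tagged wild-type RING1B or the catalytic mutant I53S from a pCAG promoter, so that RING1A is absent from all 3 lines with or without OHT, and endogenous RING1B is also present in all 3 without OHT. Eed fl/fl ESCs with ROSA26:creERT2, in which OHT deletes the PRC2 subunit EED, formed a separate line, and derivatives of the first 3 lines lacking MTF2 (MTF2 KO) were profiled by ChIP-seq alone. Cells received OHT (+OHT) or ethanol (-OHT) for 72 h, and some MTF2 and JARID2 libraries are titled 48 h. Each of the 8 RNA groups held 2 libraries. The labels do not say whether these came from separate cultures or clones, so p-values measure the spread between these libraries.

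GATA factors are zinc finger proteins that bind the motif their name spells. Gata1, Gata2 and Gata3 are known from blood cells, with Gata2 and Gata3 also acting in trophoblast, and Gata4, Gata5 and Gata6 from heart and endoderm, where Gata4 and Gata6 drive primitive endoderm. In ESCs, the paper describes Polycomb target genes as held silent by PRC1, which ubiquitylates histone H2A (H2AK119ub1) through RING1A or RING1B. The other Polycomb complex is PRC2, and the paper reports very few genes upregulated after acute loss of its subunit EED. PRC2 methylates histone H3 (H3K27me3) and binds CpG-rich DNA through subunits such as MTF2. The paper describes another PRC2 subunit, JARID2, as binding H2AK119ub1.

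The DNA at these genes is shown because the members differed in CpG content and in Polycomb peaks. RefSeq promoters (GRCm38.p6, 250 bases before to 50 bases after a start) were found for 4 of the 6 genes, and Gata4 and Gata6 had no entry. Of 32851 promoters, the median held 7 CpG dinucleotides in 300 bases. The Gata1 promoter held 4, more than 31.4% of promoters, the Gata3 promoter 22 (76.9%), the Gata5 promoter 26 (83.1%) and the Gata2 promoters 32 and 29 (90.5% and 87.1%). Below, the stretch upstream of the start is printed for Gata1, Gata2 and Gata5, 5′ to 3′ on the gene's strand, with every CpG in capitals. That of Gata1 lies inside the span annotated for the gene, outside exons, and those of Gata2 and Gata5 lie inside a RING1B peak of untreated Parental cells.
Gata1 upstream, chrX:7967911-7968160, minus strand: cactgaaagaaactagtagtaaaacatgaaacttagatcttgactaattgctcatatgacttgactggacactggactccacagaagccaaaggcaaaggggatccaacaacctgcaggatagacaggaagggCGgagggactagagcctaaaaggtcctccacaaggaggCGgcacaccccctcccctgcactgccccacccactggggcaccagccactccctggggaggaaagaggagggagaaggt
Gata2 upstream, chr6:88193641-88193890, plus strand: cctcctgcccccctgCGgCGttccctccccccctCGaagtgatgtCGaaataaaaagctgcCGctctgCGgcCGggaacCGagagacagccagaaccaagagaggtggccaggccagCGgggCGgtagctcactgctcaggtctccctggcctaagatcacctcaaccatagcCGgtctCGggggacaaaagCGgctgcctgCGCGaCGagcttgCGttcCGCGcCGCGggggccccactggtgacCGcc
Gata5 upstream, chr2:180334700-180334929, minus strand: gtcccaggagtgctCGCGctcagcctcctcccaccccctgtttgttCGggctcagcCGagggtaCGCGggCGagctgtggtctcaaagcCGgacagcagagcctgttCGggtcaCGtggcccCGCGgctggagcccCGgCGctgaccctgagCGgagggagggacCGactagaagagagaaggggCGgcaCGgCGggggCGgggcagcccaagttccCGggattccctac
The printed stretch of Gata1 held 2 CpG in 250 bases, that of Gata2 22 in 250 and that of Gata5 21 in 230. For Gata3 and Gata4, the non-exonic 250 bases nearest the centre of the strongest RING1B peak of untreated Parental cells are printed on the plus strand.
Gata3 peak, chr2:9883336-9883585, plus strand: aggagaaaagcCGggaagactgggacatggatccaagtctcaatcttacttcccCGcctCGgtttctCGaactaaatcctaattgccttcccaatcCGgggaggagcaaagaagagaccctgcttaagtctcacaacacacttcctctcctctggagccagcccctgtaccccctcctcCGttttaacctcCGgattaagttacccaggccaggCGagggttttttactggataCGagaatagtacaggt
Gata4 peak, chr14:63246414-63246663, plus strand: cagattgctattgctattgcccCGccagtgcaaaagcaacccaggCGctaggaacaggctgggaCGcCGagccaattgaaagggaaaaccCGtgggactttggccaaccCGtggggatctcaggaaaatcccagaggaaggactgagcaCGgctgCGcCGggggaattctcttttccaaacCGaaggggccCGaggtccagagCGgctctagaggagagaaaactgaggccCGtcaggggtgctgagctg
These held 9 CpG (Gata3) and 13 CpG (Gata4), where the central 250 bases of the 5073 RING1B peaks held a median of 19. Fewer CpG than at Gata3 were found in 15.2% of peak centres and fewer than at Gata4 in 28.6%. Both stretches lay inside the annotated span of their gene. The Gata4 stretch was the centre of its peak and held fewer CpG than most peak centres. The Gata3 stretch was moved off its peak centre to avoid exons, whereas the 5073 peak centres were not. Its share thus compares unlike stretches, and no rank of the Gata3 peak is drawn from it.

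In mm10 with GENCODE M21, Gata1 lies on chromosome X from 7959260 to 7978071, Gata2 on chromosome 6 from 88193891 to 88207032, Gata3 on chromosome 2 from 9857078 to 9890034, Gata4 on chromosome 14 from 63198922 to 63271692, Gata5 on chromosome 2 from 180325133 to 180334699 and Gata6 on chromosome 18 from 11052064 to 11085635. Reads were counted without strand, and 3 members share exon bases with a neighbouring gene: Gata3 with Gm13256 (155 bases) and 9230102O04Rik (77 bases), Gata5 with its antisense gene Gata5os (258 bases) and Gata6 with 1010001N08Rik (93 bases), so their reads in those stretches cannot be told apart.

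Libraries held between 6957248 and 12743460 counts. Levels are CPM, the counts scaled to library size with TMM factors. Calls needed a log2 fold change beyond 1.5 in either direction together with a false discovery rate under 0.05 in edgeR's quasi-likelihood test over 18154 genes in the 12 libraries of Parental, RING1B WT and RING1B I53S cells. The median log2 fold change with OHT over those genes was 0.03 in Parental, 0.01 in RING1B I53S and 0.02 in RING1B WT cells. Counts of Rnf2, which encodes RING1B, fell little with OHT (log2 fold change -0.55 ± 0.20 SE in Parental cells), and they include reads of the undeleted exons and, in the derivatives, of the transgene, so they check the deletion poorly. RING1B peaks were 5073 in Parental cells without OHT and 690 with it. All 14 naive pluripotency genes had counts in every group, with a summed level of 4335 to 4989 CPM in Parental cells without OHT. Fibroblast markers, the check for feeder-like cells, summed to 23.5 to 24 CPM there, with 6 of 10 at 0 counts.

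Without OHT, the GATA genes were near silent in Parental cells. Gata2 stood at 3.83 and 2.23 CPM, Gata4 at 1.47 and 2.23 CPM, Gata1 at 0.652 and 0.742 CPM, and Gata3 at 0.489 and 0.494 CPM in the 2 libraries. Gata5 and Gata6 had 0 counts in both. Per length, mean levels were 0.561 ± 0.210 RPKM (SD, n = 2) for Gata2, 0.473 ± 0.137 for Gata4, 0.286 ± 0.0261 for Gata1 and 0.124 ± 0.000995 for Gata3, and the neighbours Gata2 and Gata4 did not differ beyond their spread. The transgenic lines without OHT were close to this. Gata3 had 0.927 and 0.672 CPM in RING1B I53S and 1.60 and 1.21 CPM in RING1B WT cells, all 4 above the Parental libraries, and Gata6 had 1 to 3 counts in each of those 4 libraries.

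With OHT, all 6 genes were higher in Parental cells and Gata3 moved from the lowest of the 4 detected genes to the highest. Gata3, which specifies T cells and trophoblast, reached 52.9 and 51.8 CPM from under 0.5 CPM, a log2 fold change of 6.70 ± 0.36 (SE). Gata2, a factor of blood stem cells, stood at 22.7 and 26.1 CPM (2.97 ± 0.36). Gata4, of heart and endoderm, stood at 9.22 and 11.5 CPM (2.51 ± 0.45). The 2 libraries of each condition lay well apart from those of the other for these 3 genes, and Gata3 had the widest gap. Gata1, the erythroid factor, stood at 3.93 and 4.68 CPM (2.62 ± 0.59). Gata6, of primitive endoderm, rose from 0 counts to 62 and 54 counts, at least 35.8-fold against a floor of 3 counts over the group. Gata5 rose from 0 to 12 and 26 counts, at least 11.7-fold, with the largest ratio between the libraries of any member (1.02 and 2.53 CPM). All 6 were called higher, beside 15.1% of all genes tested. Since the family was chosen on this contrast, nothing is read from that difference. Per length, the order with OHT was Gata3 (13.2 ± 0.210 RPKM), Gata2 (4.52 ± 0.447), Gata4 (2.65 ± 0.413), Gata1 (1.77 ± 0.218), Gata6 (0.811 ± 0.00331) and Gata5 (0.543 ± 0.326), of which only the last pair did not differ beyond the spread. In bulk RNA, more cells expressing a gene and more RNA per cell cannot be told apart.

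In RING1B I53S cells, 5 of the 6 genes were called higher with OHT, beside 12.8% of all genes. Gata3 stood at 35.6 and 36.8 CPM (log2 fold change 5.46 ± 0.33), Gata2 at 29.5 and 18.7 CPM (2.45 ± 0.35) and Gata4 at 7.32 and 8.01 CPM (2.33 ± 0.45). The Gata3 libraries lay below both Parental libraries with OHT, while those of Gata2 lay on either side of them. Gata6 had 64 and 54 counts against 2 and 1 without OHT, a ratio of 42.6 (95% counting interval 14.2 to 209). Gata5 had 13 and 20 counts against 1 and 1, a ratio of 17.9 (4.57 to 154), and was not called when either library without OHT was left out. Gata1, at 2.91 and 3.27 CPM against 1.24 and 1.06 CPM, was the member not called, with a log2 fold change of 1.42 ± 0.54 that passed neither the fold threshold nor the false discovery rate. Counting intervals cover counting error only.

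In RING1B WT cells, 1 of the 6 genes was called higher with OHT, beside 1.34% of all genes. Gata3 stood at 4.93 and 7.60 CPM with OHT, both above the libraries without it (2.13 ± 0.34), and was that gene. The call was lost without the second library with OHT (log2 fold change 1.79) or the second without OHT (1.94). Gata2 stood at 6.14 and 7.35 CPM against 3.10 and 1.86 CPM (1.43 ± 0.39). For Gata4 (2.11 and 3.99 CPM) and Gata1 (0.805 and 2.99 CPM) the groups overlapped, and the Gata1 difference turned from 0.84 to -0.35 without the second library with OHT. Gata6 had 5 and 11 counts against 3 and 3. Gata5 had 0 and 1 counts against none, under the floor, so no fold is given.

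**Figure D1:**
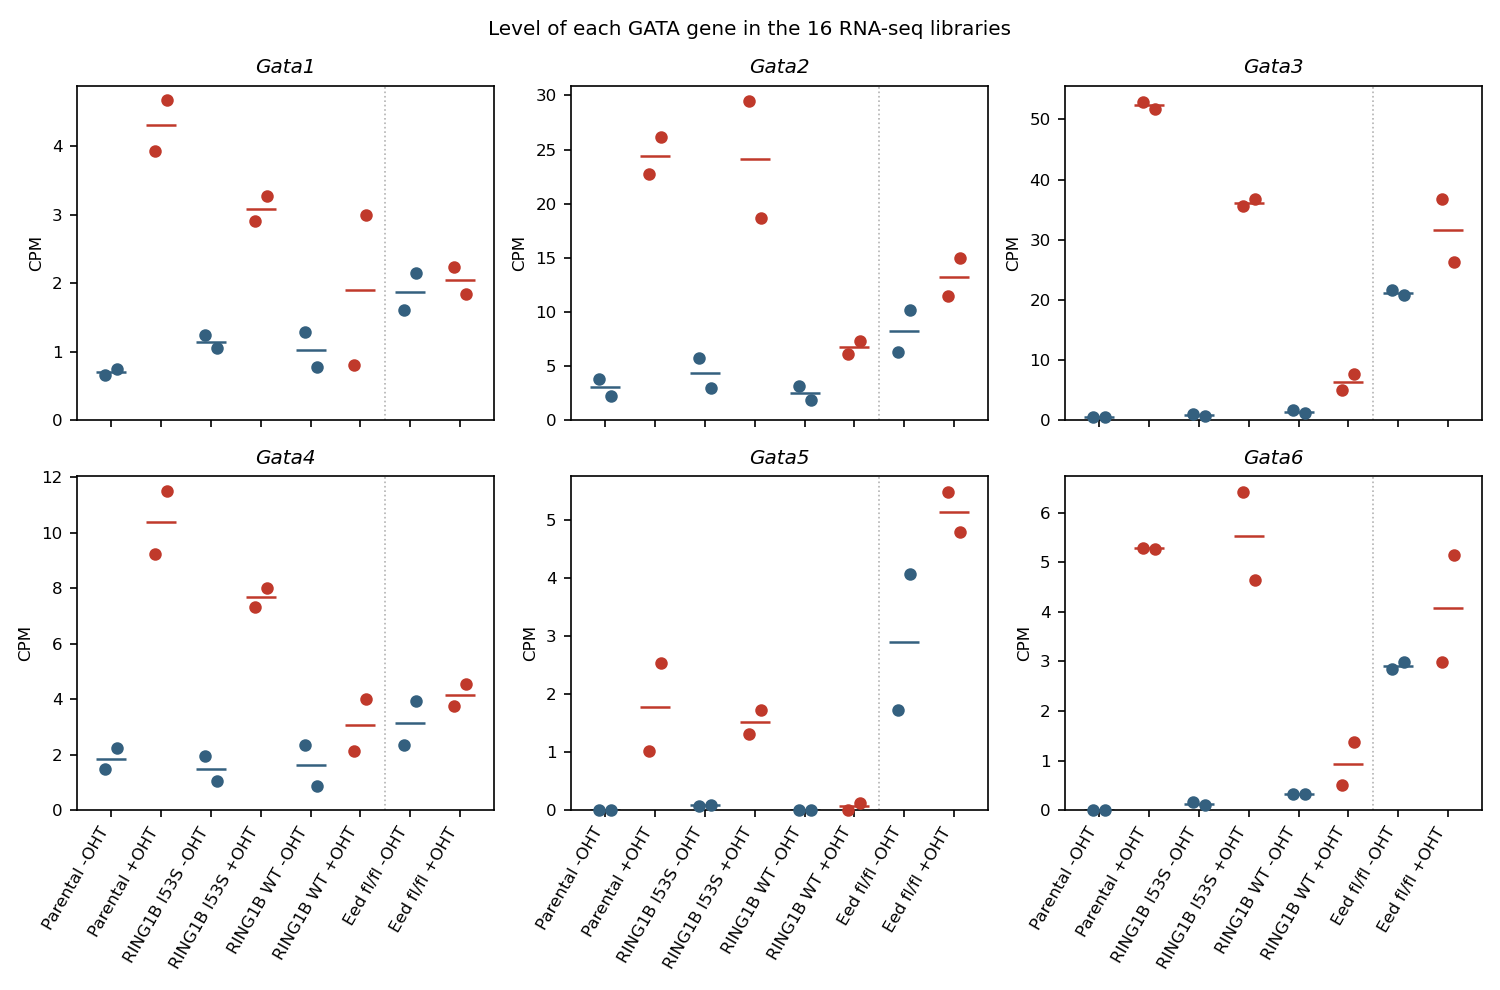
Levels of the 6 GATA genes in CPM (vertical axis of each panel) in the 16 libraries, by line and treatment: each dot is a library, each line the mean of 2, blue -OHT and red +OHT, with Eed fl/fl cells right of the dotted line. Parental and RING1B I53S libraries with OHT stand above all others for Gata2 and Gata4, Parental libraries with OHT for Gata1 and Gata3, and Eed fl/fl libraries with OHT for Gata5.

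**Figure D2:**
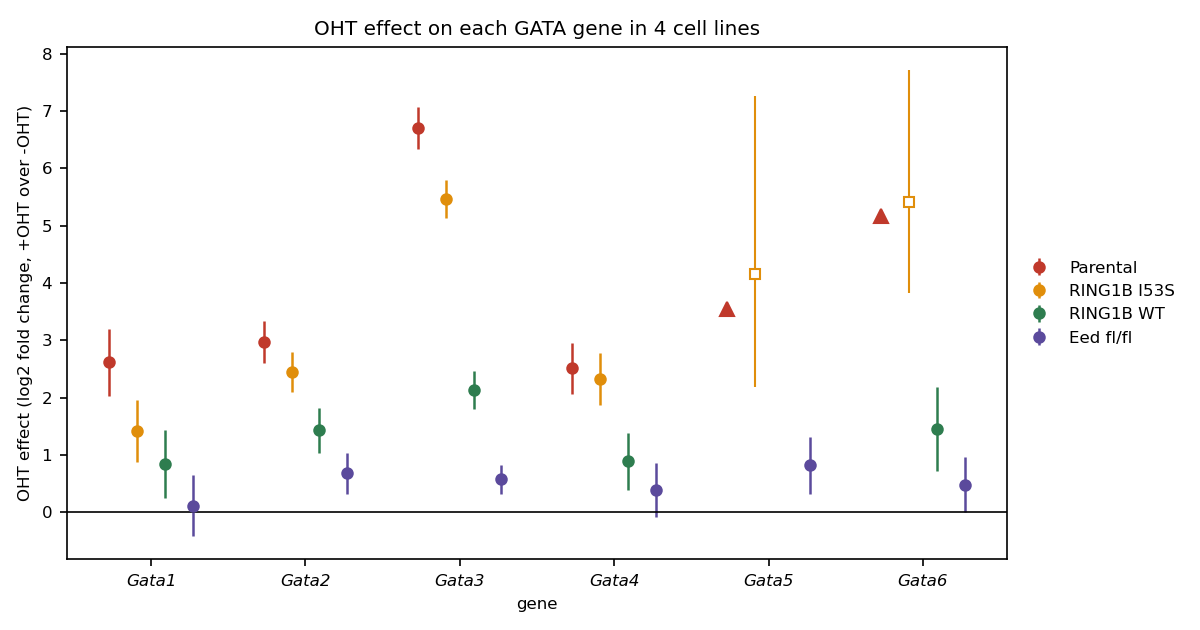
Log2 fold change with OHT of each GATA gene (circles, with SE bars) in Parental, RING1B I53S, RING1B WT and Eed fl/fl cells: red triangles are lower bounds for genes with 0 counts in untreated Parental cells, against 3 counts, and open squares are count ratios with 95% counting intervals. Gata3 lies at 6.70, 5.46, 2.13 and 0.57 in these lines in that order, and Gata5 in RING1B WT cells is not drawn.

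Whether the catalytic mutant differed from no RING1B at all was asked with OHT present. With OHT, no member was called in RING1B I53S relative to Parental cells by edgeR, nor by DESeq2, beside 0.16% of all genes. At an unadjusted p under 0.05 stood 1 of the 6, beside 901 of the 18154 genes. Log2 differences (I53S minus Parental) were -0.47 for Gata1 (95% interval -1.5 to 0.56), -0.02 for Gata2 (-0.68 to 0.63), -0.43 for Gata4 (-1.26 to 0.39), -0.22 for Gata5 (-1.66 to 1.23) and 0.07 for Gata6 (-0.87 to 1.00). Gata3 was lower by 0.53 on the log2 scale (interval -1.02 to -0.05). The intervals of Gata1, Gata3, Gata4 and Gata5 reach past 1 on the log2 scale, so a difference of that size was not excluded at this depth. The OHT effects themselves did not differ past the thresholds between these lines for any member, and no gene of all tested was called by edgeR or DESeq2 (0% of 18154, with 488 at an unadjusted p under 0.05). The differences (I53S minus Parental) were -1.20 ± 0.81 (SE) for Gata1, -0.52 ± 0.49 for Gata2, -1.24 ± 0.56 for Gata3 and -0.18 ± 0.65 for Gata4.

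With OHT, 5 of the 6 members were called lower in RING1B WT than in Parental cells, beside 7.62% of all genes, a count that draws on the Parental libraries known when the family was chosen. Gata2 was 3.63-fold lower (log2 difference -1.86 ± 0.34), Gata4 3.43-fold lower (-1.78 ± 0.43) and Gata6 5.74-fold lower (-2.52 ± 0.53). Gata5 had 1 count in 2 RING1B WT libraries against 38 in 2 Parental libraries, a ratio of 31.1 (95% counting interval 5.25 to 1259). Gata3 was 8.41-fold lower (-3.07 ± 0.27). For these 5 genes both RING1B WT libraries lay below both Parental libraries. Gata1 was not called (-1.21 ± 0.53), although both its libraries also lay below. The first RING1B WT library with OHT had the lower level of all 6 genes, and without it Gata4 (-1.37), Gata5 and Gata6 (-1.93) were no longer called. Without the second Parental library, Gata4 (-1.61) and Gata5 were lost, and without the second RING1B WT library Gata1 was also called (-2.40).

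Relative to RING1B I53S cells with OHT, 4 members were lower in RING1B WT cells, beside 6.02% of all genes. These were Gata2 (-1.84 ± 0.34), Gata6 (-2.59 ± 0.53), Gata5 (33 counts against 1, ratio 27.5 with a counting interval of 4.60 to 1117) and Gata3 (-2.54 ± 0.26). Gata4 passed the false discovery rate but not the fold threshold (-1.35 ± 0.43), and Gata1 passed neither (-0.74 ± 0.53). Gata5 was not called by DESeq2 or without either RING1B WT library, Gata6 (-1.99) was lost without the first RING1B WT library, and Gata2 (-1.48) fell under the fold threshold without the first RING1B I53S library.

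The difference between lines in the OHT effect itself, which also takes in the untreated levels, was called for fewer members. Between RING1B WT and Parental cells it was -4.57 ± 0.54 for Gata3 and was called for Gata6 too, beside 1.1% of all genes. The fitted Gata6 difference rests on 0 counts in untreated Parental cells and is no bound, and the call was lost when any of 7 of the 8 libraries was left out, all but the second RING1B WT library with OHT. Differences were -1.77 ± 0.85 for Gata1, -1.54 ± 0.54 for Gata2 and -1.62 ± 0.67 for Gata4, none of them called, so a smaller effect in RING1B WT cells was not shown for these 3 genes, and for Gata5 it could not be fitted. Between RING1B WT and RING1B I53S cells only Gata3 was called (-3.33 ± 0.50, beside 0.209% of all genes), and it was lost without the first untreated RING1B WT library (-3.10). The other differences were -0.58 ± 0.82 for Gata1, -1.02 ± 0.53 for Gata2, -1.44 ± 0.68 for Gata4 and -3.85 ± 1.13 for Gata6.

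Between the lines without OHT, no member was called by edgeR or DESeq2 in any of the 3 comparisons, beside 0.0606% of genes between RING1B WT and Parental, 0.154% between RING1B I53S and Parental and 0.0441% between RING1B WT and RING1B I53S cells. At an unadjusted p under 0.05 there were 2 members between RING1B WT and Parental cells, beside 825 of the 18154 genes. There were 0 in each of the other comparisons, beside 947 genes between RING1B I53S and Parental and 960 between RING1B WT and RING1B I53S cells. Gata6, with 6 counts in RING1B WT against 0 in Parental cells, was at least 2.21-fold higher against the floor of 3 counts.

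Eed fl/fl cells showed a different baseline. Gata3 already stood at 21.6 and 20.8 CPM without OHT, and Gata5 (1.73 and 4.06 CPM) and Gata6 (2.84 and 2.99 CPM) were detected in every library, where Parental cells had under 0.5 CPM of Gata3 and 0 counts of the others. The lines were fitted apart, and line and batch cannot be told apart here. With OHT, Gata3 stood at 36.8 and 26.3 CPM (log2 fold change 0.57 ± 0.26, edgeR adjusted p = 0.833), Gata2 at 11.5 and 15 CPM against 6.29 and 10.2 CPM (0.68 ± 0.36, adjusted p = 0.833) and Gata5 at 5.48 and 4.79 CPM (0.82 ± 0.50, adjusted p = 0.833). For these 3 genes the groups did not overlap. Gata1 (0.12 ± 0.53, adjusted p = 0.973), Gata4 (0.39 ± 0.47, adjusted p = 0.895) and Gata6 (0.48 ± 0.47, adjusted p = 0.870) overlapped between the groups. No member was called by edgeR or DESeq2, beside 0.00795% of the 25170 genes tested (2 genes, with 1372 at an unadjusted p under 0.05, Gata3 the only member among them, and 27 called by DESeq2). These p-values come from a fit without the replicate number, although differences between replicates 1 and 2 correlated at 0.459 between the 2 groups. With that number as a block, 161 genes were called and still 0 members. In the block fit Gata3 had an edgeR adjusted p of 0.0414, under the fold threshold, so its adjusted p depends on the fit. Upper 95% limits of the log2 fold change were 1.14 for Gata3, 1.46 for Gata2, 1.91 for Gata5, 1.28 for Gata1, 1.42 for Gata4 and 1.52 for Gata6, so a change past 1.5 on the log2 scale was not excluded for Gata5 and Gata6. Eed itself stood at 255 and 173 CPM without OHT and 67.1 and 43.7 CPM with it (-1.95 ± 0.32, adjusted p = 0.0766). Per length, the order in untreated Eed fl/fl cells was Gata3 (5.33 ± 0.142 RPKM), Gata2 (1.52 ± 0.507), Gata5 (0.884 ± 0.504), Gata4 (0.806 ± 0.290), Gata1 (0.770 ± 0.159) and Gata6 (0.448 ± 0.0163), with Gata2 and Gata5 overlapping, and Gata5, Gata4 and Gata1 within the spread of each other.

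Across the 12 libraries, the members followed one another, with Pearson's r of log2 CPM from 0.887 (Gata1 with Gata2) to 0.988 (Gata3 with Gata6). The genes most like each member were Trp63 (0.985), Oas1e (0.975) and 2610016A17Rik (0.964) for Gata1, Amot (0.997), Nrk (0.989) and Ccser1 (0.989) for Gata2, and Rhox6 (0.995), Pitx1 (0.991) and Gfra1 (0.990) for Gata3. For Gata4 they were Pyy (0.987), Baiap2l1 (0.984) and C3 (0.982), for Gata5 Gda (0.986), Fxyd7 (0.984) and Ccdc158 (0.982), and for Gata6 Gata3 (0.988), Itga11 (0.988) and Ptgs2 (0.987). The points share their libraries and the split between high and low groups, so these values are a description over 12 libraries.

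Partners of GATA factors moved in part. Of 14 cofactor genes tested, 6 were called higher with OHT in Parental cells (beside 15.1% of all genes) and 0 lower (median log2 fold change 0.79, against 0.03 over all genes), among them Tal1 (4.96) and Lmo2 (4.46), blood factors that join GATA1 in a complex, Lmo1 (3.10) and Zfpm1, which encodes the GATA1 partner FOG1 (1.90). In RING1B I53S cells 6 were called higher (beside 12.8% of all genes) and 1, Lyl1, lower (-2.62 ± 0.59, beside 1.04%). None was called with OHT in RING1B WT cells, where no test of the difference was passed by these 4. With OHT, 3 cofactors were called lower in RING1B WT than in Parental cells (beside 7.62% of all genes), namely Tal1 (-2.47 ± 0.78), Lmo1 (-1.92 ± 0.44) and Cbfa2t3 (-1.51 ± 0.45). Lyl1 was called higher (1.60 ± 0.53, beside 1.06% of all genes). The lists were chosen with earlier results of these data known, so these values too are a description. Of 7 other genes with a GATA-type zinc finger, 0 were called in either direction in Parental cells with OHT (median -0.08).

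Markers of the tissues where GATA factors act moved in the same libraries. With OHT in Parental cells, 12 of 17 extraembryonic endoderm genes, 12 of 17 trophoblast genes, 10 of 16 blood and endothelial genes and 9 of 14 cardiac genes were called higher (beside 15.1% of all genes), with 1 blood and endothelial gene, Pecam1, lower (-2.47), and 6 of 14 naive pluripotency genes lower (beside 1.83% of all genes) with 1 higher. Their summed levels went from 699 to 846 CPM without OHT to 1384 to 1418 CPM with it for extraembryonic endoderm, from 274 to 341 CPM to 881 to 884 CPM for trophoblast, and from 80.5 to 89.3 CPM to 189 to 203 CPM for cardiac genes. Naive pluripotency genes summed to 2303 to 2413 CPM with OHT, fibroblast markers to 67.2 to 69.2 CPM with 4 of 10 still at 0 counts, and the blood and endothelial sum was lower (263 to 284 CPM without OHT and 121 to 128 CPM with it) although 10 of its genes were called higher. Genes at 0 counts in untreated Parental cells were 3 of 20 for extraembryonic endoderm, 0 of 18 for trophoblast, 3 of 18 for blood and endothelial and 1 of 16 for cardiac genes. Between RING1B WT and Parental cells with OHT, 7 of 17 endoderm genes, led by Sox7 (-3.76), 9 of 17 trophoblast genes, led by Esx1 (-3.66) and Cdx2 (-3.35), 4 of 16 blood and endothelial genes and 7 of 14 cardiac genes were lower (beside 7.62% of all genes). In the same comparison Pecam1 was higher (2.33), as were 4 of 14 naive pluripotency genes, Klf2 (1.66) among them (beside 1.06% of all genes). In Eed fl/fl cells 0 genes of any of these lists were called, beside 0.00795% of all genes, and the deleted gene Eed was not called either. Median log2 fold changes there were 0.33 for endoderm, 0.36 for trophoblast, 0.23 for blood and endothelial and 0.33 for cardiac genes. They were -0.05 for naive pluripotency genes and 0.55 for fibroblast markers, against 0.08 over all genes. The part of other cell types in the GATA values was not tested.

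Polycomb peaks divided the family. Gata1 had no peak within 2.5 kb in any of the 70 lists, while Gata2 had one in 56, Gata3 in 54, Gata4 in 51, Gata5 in 54 and Gata6 in 53. Of 21951 protein-coding genes, 7328 (33.4%) likewise had none. In untreated Parental cells the RING1B peak nearest to Gata1 was 36044 bp away and the nearest H2AK119ub1 peak 31058 bp away, with 114 RING1B peaks on chromosome X. Of the 2667 tested protein-coding genes with no peak in any list, 5.7% were called higher with OHT in Parental cells, as Gata1 was, against 44.5% of the 3687 with a RING1B peak. ChIP-seq was made from 1 library per condition except for MTF2 and JARID2 after 72 h of OHT in both transgenic lines, which had 2 libraries, so peak values have no replicate check elsewhere. The number and length of peaks also depend on sequencing depth, which the lists do not give. Untreated RING1B I53S and RING1B WT cells had lists for MTF2 and JARID2 alone. For the other antibodies these lines with OHT are set beside untreated Parental cells, so line and OHT cannot be told apart there.

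RING1B covered the other 5 genes in untreated Parental cells, beside 19.5% of all protein-coding genes. At Gata2, the strongest peak ran over 9844 bp (88192771 to 88202614) with a score, the negative log10 of MACS2's p-value, of 255. At Gata5 it ran over 2325 bp (180333321 to 180335645, score 149), and at Gata6 over 8587 bp (11047914 to 11056500, score 142). At Gata3 and Gata4 RING1B lay in several pieces, 4 and 5 peaks, the strongest of 4863 bp (score 110) and 5189 bp (score 87.0). Covered length, summed within the window of each gene, was 11679 bp at Gata2, 13578 bp at Gata3, 10049 bp at Gata4, 6937 bp at Gata6 and 2325 bp at Gata5, where the median over 4278 genes with a RING1B peak was 1610 bp. Coverage longer than in at least 98.5% of those genes was found at Gata2, Gata3 and Gata4. Longer genes have wider windows, and these genes span 13142, 32957 and 72771 bp. By top score they stood above 98.8%, 80.7% and 73.9% of those genes. With OHT, no GATA gene had a RING1B peak in Parental (2.36% of genes) or RING1B I53S cells (4.22%), and all 5 had one in RING1B WT cells (15% of genes), over 9354, 10041, 7731, 2538 and 6246 bp at Gata2 to Gata6.

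Other PRC1 subunits followed RING1B with exceptions. CBX7, the chromodomain subunit of canonical PRC1, had peaks at all 5 genes in untreated Parental cells (18.9% of genes) and RING1B WT cells with OHT (9.94%), and at none in Parental (0.278%) or RING1B I53S cells with OHT (0.169%). PCGF2, another canonical subunit, was at all 5 genes in untreated Parental cells (18.7%), over 3069 bp at Gata5 to 16509 bp at Gata3. With OHT it was at none in Parental cells (0.392%), but in RING1B I53S cells (2.58%) it was at 4 genes, over 1331 bp at Gata2, 1957 bp at Gata3, 1042 bp at Gata5 and 3864 bp at Gata6. Scores of those 4 peaks were between 11.3 and 22.6, and 1 of the 4 genes had a peak at a minimum score of 20. The paper reports that PCGF2 protein was destabilized without RING1B and restored by both RING1B WT and I53S. Protein level and binding cannot be told apart from these peaks. RYBP, of variant PRC1, was at Gata2, Gata4 and Gata5 in untreated Parental cells (13% of genes), at Gata2 and Gata5 in RING1B WT cells with OHT (5.37%), and at none in Parental (0.269%) or RING1B I53S cells with OHT (3.68%). At a minimum score of 20, RYBP was at 0 members in both former lists, and the title of the library taken as Parental with OHT gives its treatment less plainly than the others. PCGF6, of a variant PRC1 with its own DNA-binding partners, was at Gata2, Gata3, Gata4 and Gata6 in untreated Parental cells (30.3% of genes) and at all 5 in RING1B WT cells with OHT (28.5%). With OHT it was at Gata4 alone in Parental cells, over 454 bp (21.2% of genes), and at Gata2 alone in RING1B I53S cells, over 422 bp (11.1%). At a minimum score of 20, PCGF6 was at 2 genes in untreated Parental cells and at 0 in these last lists.

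H2AK119ub1 peaks in Parental and RING1B I53S cells with OHT were shorter than in untreated Parental cells but were still called at all 5 genes. The paper, from spike-in-scaled ChIP-seq, reports that RING1B I53S cells with OHT lost the mark completely at PRC1 targets. By western blot it reports global loss in both these and Parental cells with OHT. The peak lists do not use the spike-in, so covered length does not measure how much of the mark was left. In untreated Parental cells the mark covered 15975 bp at Gata2, 15057 bp at Gata3, 11799 bp at Gata4, 4158 bp at Gata5 and 7249 bp at Gata6 (26.3% of genes had a peak). With OHT, covered lengths in Parental cells were 55.3%, 35.3%, 29.6%, 88.3% and 71% of those lengths in the same order. In RING1B I53S cells with OHT they were 49.1%, 15.1%, 15.8%, 48.6% and 43.4% of the untreated Parental lengths. Untreated RING1B I53S cells had no list of this mark, so the latter shares also hold any difference between the lines. Gata3 and Gata4 thus had the smallest share of the untreated Parental length in both lines. Top scores in RING1B I53S cells lay between 12.1 and 27.9, with 2 of the 5 genes at 20 or above. In RING1B WT cells covered length ranged from 4769 bp at Gata5 to 17680 bp at Gata2, above the untreated Parental value at each of the 5 genes. The whole lists moved in the same direction, from 12648 peaks in untreated Parental cells to 5450 in Parental, 3120 in RING1B I53S and 15830 in RING1B WT cells with OHT.

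Peaks of PRC2 and its mark at the 5 genes were also mostly shorter in Parental and RING1B I53S cells with OHT than in untreated Parental cells. SUZ12, a core PRC2 subunit, covered 13937, 19689, 14960, 3422 and 8590 bp at Gata2 to Gata6 in untreated Parental cells. With OHT it covered 7867, 7196, 4320, 2589 and 6129 bp in Parental and 6599, 4102, 3322, 1373 and 4040 bp in RING1B I53S cells. Every gene was shorter in RING1B I53S than in Parental cells with OHT, and the share of all genes with a SUZ12 peak was also lower (14.4% against 23%, from 31.4% in untreated Parental cells). H3K27me3 covered 16080, 24407, 23304, 6361 and 7712 bp in untreated Parental cells (30.5% of genes). It covered 10150, 14360, 11854, 7374 and 6440 bp in Parental (25.6%) and 6842, 12158, 5601, 6126 and 6251 bp in RING1B I53S cells with OHT (24.1%). Gata5 alone was thus longer in Parental cells with OHT than without. The whole H3K27me3 lists held 18245 peaks in untreated Parental cells, 14283 in Parental cells with OHT and 18909 in RING1B I53S cells with OHT. In RING1B WT cells with OHT, SUZ12 covered 3137 to 16165 bp and H3K27me3 7210 to 24978 bp (26.1% and 30.5% of genes).

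The accessory subunits of PRC2 differed from one another. JARID2 and AEBP2 belong to the PRC2.2 form, and MTF2 and EPOP to PRC2.1. JARID2 covered 15361, 22227, 21795, 6311 and 10122 bp at Gata2 to Gata6 in untreated Parental cells (34.8% of genes) and 5658, 1636, 2498, 2051 and 3346 bp after 72 h of OHT (5.62%). In the 2 libraries of RING1B I53S cells at 72 h it covered 2894 and 2127 bp at Gata2, 1642 and 1054 bp at Gata3, 1061 and 919 bp at Gata5 and 1642 and 1708 bp at Gata6, and had no peak at Gata4 in either (4.36% and 1.8% of genes). The untreated JARID2 lists differed between lines, with 14778 peaks in Parental, 6563 in RING1B I53S and 7446 in RING1B WT cells. Lengths in the transgenic lines set beside untreated Parental cells therefore also hold this difference. At a minimum score of 20, 3 genes kept JARID2 in Parental cells at 72 h and 1 in the second RING1B I53S library. Gata4 also had none in the 48 h library of that line, in which the other 4 genes were covered over 1195 to 4557 bp. Both RING1B WT libraries at 72 h lay above both RING1B I53S libraries at each of the 5 genes, from 3907 and 3926 bp at Gata5 to 18382 and 20350 bp at Gata3. AEBP2 was at all 5 genes in untreated Parental (4.6% of genes) and in RING1B WT cells with OHT (4.92%, or 3 genes at a minimum score of 20), and at none in Parental (0.0683%) or RING1B I53S cells with OHT (0.132%).

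MTF2 had a peak at all 5 genes in every list (54.6% of all genes in untreated Parental cells, 27.6% after 72 h of OHT). In untreated Parental cells it covered 15499, 22951, 26812, 6366 and 10778 bp at Gata2 to Gata6, and after 72 h of OHT 7206, 10540, 9456, 3223 and 6584 bp. The 2 RING1B I53S libraries at 72 h differed from each other, with 2451 and 11645 bp at Gata3 and 2551 and 9237 bp at Gata4, while their whole lists held 3091 and 7546 peaks. These replicates lay on either side of Parental cells with OHT at Gata3 and both below them at Gata4. Both libraries of RING1B WT cells at 72 h lay above both RING1B I53S libraries at each gene, with 16918 and 18637 bp at Gata3. The untreated MTF2 lists differed between lines too, with 24485 peaks in Parental, 11623 in RING1B I53S and 13559 in RING1B WT cells. EPOP covered 12876, 18975, 11641, 4159 and 8136 bp in untreated Parental cells (26.2% of genes). With OHT it covered 4636, 1425, 2700, 2121 and 3194 bp in Parental (11.6%) and 6294, 2007, 3546, 1408 and 3686 bp in RING1B I53S cells (12.6%). At a minimum score of 20, EPOP was at 3 of the 5 genes in Parental cells with OHT (3.55% of genes).

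**Figure D3:**
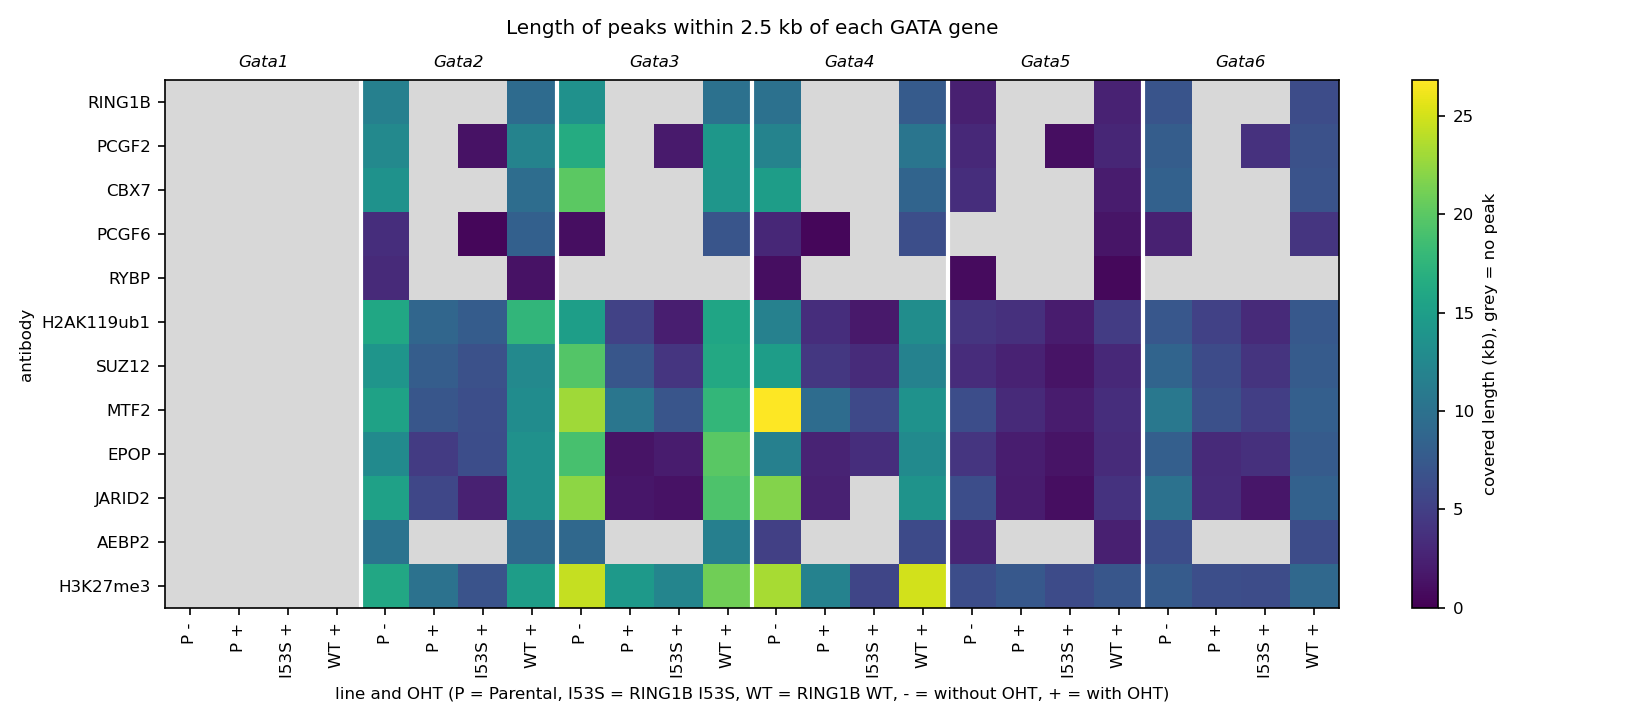
Length in kb covered by peaks within 2.5 kb of each GATA gene (colour, grey for no peak) for 12 antibodies in untreated Parental cells and in Parental, RING1B I53S and RING1B WT cells with OHT. MTF2 and JARID2 values with 2 libraries are means, Gata1 has no peak of any antibody, and RING1B, CBX7, RYBP and AEBP2 have none in Parental or RING1B I53S cells with OHT.

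Without MTF2, peaks of PRC2 at the GATA genes were present where RING1B peaks were present in the matching cells with MTF2, and nearly absent elsewhere. In untreated Parental MTF2 KO cells SUZ12 covered 12420, 19668, 11389, 4791 and 7788 bp at Gata2 to Gata6, with top scores of 87.0 at Gata3 and 76.7 at Gata2 where MTF2-containing cells had 339 and 870. With OHT it had no peak at any GATA gene in Parental MTF2 KO (5.58% of genes) or RING1B I53S MTF2 KO cells (2.19%), and covered 11548, 17716, 10283, 3321 and 6923 bp in RING1B WT MTF2 KO cells (13.6%). H3K27me3 covered 8861, 8705, 6033, 5902 and 4094 bp in untreated Parental MTF2 KO cells (13.8% of genes). With OHT it had 1 peak, of 1156 bp at Gata3 with a score of 11.4, in Parental MTF2 KO cells (1.04%) and none in RING1B I53S MTF2 KO cells (4.18%). In RING1B WT MTF2 KO cells with OHT all 5 genes had a peak (8.35%), over 3508 bp at Gata6 to 8359 bp at Gata2. At a minimum score of 20, H3K27me3 was at 1 of the 5 genes in both untreated Parental and RING1B WT MTF2 KO cells, and at 0 in Parental MTF2 KO cells with OHT. The 4 input lists of the MTF2 KO cells had no peak at any member (0.114% to 0.123% of genes). No RNA-seq of MTF2 KO cells was analysed here.

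**Figure D4:**
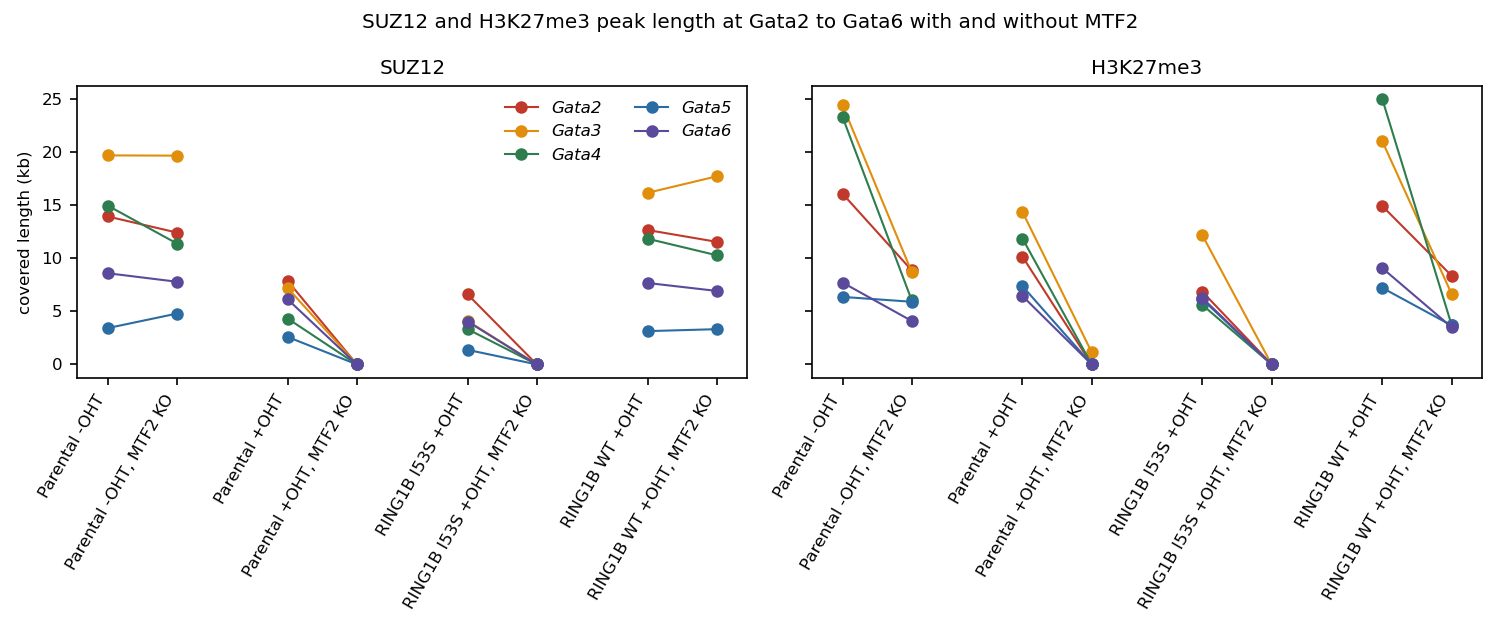
Length in kb covered by SUZ12 and H3K27me3 peaks at Gata2 to Gata6 in cells with and without MTF2, for untreated Parental cells and Parental, RING1B I53S and RING1B WT cells with OHT, 1 library each. Without MTF2, SUZ12 has no peak at these genes in Parental or RING1B I53S cells with OHT, and H3K27me3 has a single one, at Gata3 in Parental cells.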

How the data were processed

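RNA was sequenced by SMART-seq2 and chromatin by ChIP-seq. The authors aligned RNA reads with STAR 2.7 and counted exon reads per gene name of GENCODE M21 with featureCounts, without strand, and the deposited counts are raw. For the peak lists the authors aligned reads to mm10 with Bowtie 1.2.2 and called peaks per library with MACS2 2.1.1 against an ESC input, and the deposited score of each peak is a −log10 p-value of at least 10. Histone mark libraries carried a fly spike-in, which does not enter the lists.

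Counts were tested with edgeR 4.0.16 in R 4.3.3 (TMM, filterByExpr, quasi-likelihood, Benjamini-Hochberg), in one fit of 12 libraries (18154 genes) and one of the 4 Eed fl/fl libraries (25170 genes), and the procedure was tested on simulated data. Depth was 6957248 to 12743460 counts. The coefficient of biological variation was 0.181 in the first fit and 0.251 in the second, and groups of 2 libraries limit precision. Where a group had 0 counts, folds are bounds against 3 counts over the group, and with 1 to 3 counts they carry an exact counting interval. RPKM used exon length. A gene had a peak if one overlapped the span from 2.5 kb before to 2.5 kb after it by 1 bp or more. The members and the lists were chosen with earlier results of these data known. One RYBP library was taken as Parental with OHT from its title, which is less plain than the others. Named genes were the 6 members, the deleted genes, for each member the 3 genes with the highest correlation over 12 libraries (log2 CPM with a prior count of 2), and up to 3 genes of each list and comparison with the largest difference between RING1B WT and Parental cells with OHT. Pecam1 and the cofactors named for the OHT effect in Parental or RING1B I53S cells were chosen after their values were seen. Alternatives were DESeq2 1.42.0, other normalizations and filters, a replicate block, leaving out each library, a 5 kb window and a minimum score of 20. The 12 libraries of the first fit share replicate numbers, with correlations of deviations from -0.0033 to 0.301 over 15 pairs of same-numbered libraries, so the numbers were not taken as pairs. The Eed fl/fl libraries, with a correlation of 0.459, were also fitted without pairs in the main fit. With the number as a block, 161 genes were called there instead of 2.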

Additional observations from a re-analysis of the deposited data

Results flagged for a closer look

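The effect of OHT differed between lines past the thresholds for 2 of the 6 genes, by the difference fitted within edgeR, and these are descriptions since the family was chosen with its OHT response known. For Gata3 the log2 fold change with OHT was lower in RING1B WT than in Parental cells (difference -4.568) and lower in RING1B WT than in RING1B I53S cells (difference -3.328). For Gata6 the fitted difference between RING1B WT and Parental cells was -7.318, a value set by 0 counts in untreated Parental cells.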

How the results depend on the processing

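Apart from leaving out libraries, the alternatives kept all 90 counts of called GATA genes within 1.5 times, and 333 of 350 counts of GATA genes with a peak. Those for antibodies other than RING1B, H2AK119ub1, H3K27me3 and SUZ12 were added after seeing the data. With a minimum score of 20, H2AK119ub1 in RING1B I53S cells with OHT was at 2 genes instead of 5, and H3K27me3 in MTF2 KO cells at 1 instead of 5 in untreated Parental, 0 instead of 1 in Parental with OHT and 1 instead of 5 in RING1B WT with OHT. With that score, AEBP2 in RING1B WT, EPOP in Parental and JARID2 in Parental cells after 72 h of OHT were each at 3 instead of 5, JARID2 in the second RING1B I53S library and PCGF2 in RING1B I53S cells with OHT each at 1 instead of 4, PCGF6 at 2 instead of 4 in untreated Parental and 0 instead of 1 in Parental and RING1B I53S cells with OHT, and RYBP at 0 instead of 3 in untreated Parental and 0 instead of 2 in RING1B WT cells with OHT. With 5 kb added, PCGF6 in Parental cells with OHT was at 2 genes and RYBP in RING1B I53S cells with OHT at 1, and with the gene alone PCGF6 in RING1B I53S cells with OHT was at 0. Leaving out each library, members called ranged from 0 to 1 for the OHT effect in RING1B WT cells, 1 to 2 for its difference from Parental cells, 0 to 1 for its difference from RING1B I53S cells, with OHT 2 to 6 between RING1B WT and Parental cells and 2 to 4 between RING1B WT and RING1B I53S. The Gata2 difference (I53S minus Parental, with OHT) turned from -0.02 to 0.016 with only those groups fitted. Leaving out libraries reversed the sign of small differences, with ranges for I53S minus Parental with OHT of -0.38 to 0.26 (Gata2), -0.74 to 0.56 (Gata5) and -0.18 to 0.27 (Gata6), for the difference in OHT effect of -1.01 to 0.035 (Gata2) and -0.53 to 0.33 (Gata4), for RING1B WT minus RING1B I53S in OHT effect of -1.76 to 0.12 (Gata1), for OHT in RING1B WT cells of -0.35 to 1.52 (Gata1) and for OHT in Eed fl/fl cells of -0.074 to 0.29 (Gata1). The causes were not tested.

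With the replicate number as a block, members called numbered 6 in Parental, 5 in RING1B I53S, 1 in RING1B WT and 0 in Eed fl/fl cells with OHT, as without it, where all genes called in Eed fl/fl cells went from 2 to 161. In that fit Gata3 had an edgeR adjusted p of 0.0414 under the fold threshold, with a range over its alternatives of 0.0414 to 1.000. The 2 Eed numbers correlated at 0.459. Peak lists without counts limit what shorter peaks can show, since depth is unknown, and groups of 2 libraries with few reads limit Gata5 and Gata6.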
